A study of Homo sapiens with 10 samples.

Results

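The regions described here were called open in cells treated or edited to lose the transcription factor GATA6, and in none of the matching control libraries. They were chosen by their peak calls: both libraries of degron cells after 12 h of auxin and both knockout libraries called them, and no untreated degron library and no unedited library did. Of 120452 regions of the degron line, 1102 met this rule, 0.915% of the total. The assay was ATAC-seq, which reads where a transposase can cut and tag DNA, in DLD-1, an established human colorectal adenocarcinoma line. The groups AID_ctrl, AID_aux and AID_wash share the genotype GATA6-AID-IAA7, read here as a fusion of GATA6 to an auxin-inducible degron. AID_ctrl is titled as the control, although its treatment label names auxin for 0 h, and it was read as untreated. AID_aux was kept in 500 µM auxin (IAA) for 12 h. AID_wash had the auxin washed out, with a time label that has no unit. WT cells were unedited, and GATA6-KO cells carried a CRISPR/Cas9 disruption of the gene. The labels speak of positive degron clones without saying how many clones were used, and do not say whether the knockout is a clone. Each of the 5 groups had 2 libraries, and nothing says that these came from separate cultures, so the spread between them may be technical. GATA6 protein was not measured in these files, so its loss was not checked. Depth is unknown, because the files hold peaks and no read counts.

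GATA6 is a zinc-finger protein that binds short GATA sequences and can keep nucleosomes away from the enhancers it occupies. In endoderm and gut epithelium it is known for maintaining epithelial gene programmes. ATAC-seq reports accessible chromatin at promoters and enhancers alike and does not by itself show which factor occupies a site.

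The rule chose the members from these very calls, so their number and the strength of their AID_aux peaks are a description and were not tested. AID_aux gained 2974 regions against AID_ctrl (2.47% of 120452), and KO gained 17772 of the same regions against WT (14.8%). The 1102 shared regions were 37.1% of the auxin gains and 6.20% of the knockout gains. Those comparisons have no library in common. The lists were of unequal length: KO had 130311 and 116231 peaks where WT had 92814 and 65939, and the 6 degron lists had 154150 to 198493, with AID_aux replicate 1 the longest. The degron lists count summits, and their distinct intervals numbered 77883 to 101479, fewer than the KO windows. The part that list length plays in the shared regions was not tested. Of 12 markers of colorectal epithelium, 9 to 11 had a peak within 1000 bp of a gene end in each library and 1 had none in any. The same count was 4 or 5 of 12 for blood and immune markers and 2 to 6 of 14 for fibroblast and endothelial markers.

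Sequence was at hand only for gene starts, from RefSeq (GRCh38.p14), as windows of 300 bases that reach 250 before and 50 past the start. Of the 1102 regions, 17 overlapped such a window, 10 of them at protein-coding genes. The sequences printed here are the 4 best-ranked protein-coding starts with at least 200 bases inside the open region, and the 2 starts with a GATA match. They are printed 5′ to 3′ on the gene's strand, from 250 bases before to 30 bases past the start (280 bases each). Capitals mark each match to any of the motifs searched.
PLA2G2A (chr1:19980405-19980684, minus strand): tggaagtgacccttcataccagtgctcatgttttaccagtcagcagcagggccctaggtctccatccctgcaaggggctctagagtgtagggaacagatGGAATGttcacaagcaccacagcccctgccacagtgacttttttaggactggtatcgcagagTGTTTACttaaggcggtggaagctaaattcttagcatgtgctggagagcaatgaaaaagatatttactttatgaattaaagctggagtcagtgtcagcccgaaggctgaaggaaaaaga
ZBTB20 (chr3:114624916-114625195, minus strand): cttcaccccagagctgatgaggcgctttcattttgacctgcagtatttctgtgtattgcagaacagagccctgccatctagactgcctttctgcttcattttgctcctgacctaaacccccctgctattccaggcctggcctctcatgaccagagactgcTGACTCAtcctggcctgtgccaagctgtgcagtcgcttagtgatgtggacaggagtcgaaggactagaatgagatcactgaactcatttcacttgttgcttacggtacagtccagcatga
PALMD (chr1:99645863-99646142, plus strand): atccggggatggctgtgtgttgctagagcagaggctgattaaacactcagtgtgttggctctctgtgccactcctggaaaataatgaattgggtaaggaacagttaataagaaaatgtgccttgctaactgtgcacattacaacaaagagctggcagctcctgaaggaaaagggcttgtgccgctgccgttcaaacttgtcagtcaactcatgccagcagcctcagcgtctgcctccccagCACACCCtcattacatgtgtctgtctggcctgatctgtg
FLT1 (chr13:28495099-28495378, minus strand): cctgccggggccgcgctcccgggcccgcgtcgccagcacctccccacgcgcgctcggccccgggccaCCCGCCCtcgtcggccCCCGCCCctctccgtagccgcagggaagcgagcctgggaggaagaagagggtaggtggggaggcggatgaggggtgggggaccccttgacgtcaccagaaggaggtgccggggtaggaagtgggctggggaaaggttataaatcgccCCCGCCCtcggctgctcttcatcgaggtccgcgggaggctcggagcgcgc
CTDSP2-AS1 (chr12:57836841-57837120, plus strand): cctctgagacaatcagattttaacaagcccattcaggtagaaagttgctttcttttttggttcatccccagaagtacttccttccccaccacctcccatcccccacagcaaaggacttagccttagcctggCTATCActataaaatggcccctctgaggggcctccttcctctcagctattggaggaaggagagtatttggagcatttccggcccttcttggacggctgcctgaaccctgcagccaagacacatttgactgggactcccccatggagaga
LINC02185 (chr16:14015989-14016268, minus strand): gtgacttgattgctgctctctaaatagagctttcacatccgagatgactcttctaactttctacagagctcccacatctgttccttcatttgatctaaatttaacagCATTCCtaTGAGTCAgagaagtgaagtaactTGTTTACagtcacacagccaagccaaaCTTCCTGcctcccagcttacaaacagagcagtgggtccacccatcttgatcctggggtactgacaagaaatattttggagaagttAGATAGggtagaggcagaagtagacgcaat

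The best-ranked of these starts belonged to PLA2G2A, a secreted phospholipase of gut mucosa. Its region (chr1:19980366-19980987) contained the whole window. The −log10 p of the strongest summit, as the authors' peak caller gave it, was 12.5 in AID_aux replicate 1 and 10.3 in replicate 2. The windows of KO replicates 1 and 2 covered 459 and 448 bp of the region, and both AID_wash libraries called it too (6.13 and 11.1). A peak of AID_ctrl replicate 1 lay 438 bp from the region. The letters in capitals are a TEAD and a forkhead match, and no GATA match was found. ZBTB20, a zinc-finger repressor, had a region over 244 bases of its window (9.40 and 10.99 in AID_aux), with the AP-1 match TGACTCA. In the gene table this region lay inside the gene body, 310329 bp from the nearest protein-coding gene end. The ZBTB20 start printed here is thus one inside the gene body and not at its outer end. AID_wash replicate 2 called the region at 8.08 and replicate 1 did not.

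At FLT1, a receptor for vascular endothelial growth factor, the AID_aux libraries were unequal, with −log10 p of 18.4 and 5.97, and both AID_wash libraries called the region (5.71 and 12.7). PALMD, the palmdelphin gene, had 7.60 and 5.97 in AID_aux and no call in AID_wash. The other protein-coding starts were those of SLC45A1, BGLAP, EGFL7, PAPLN, ZMYND10 and OR7D2. Their AID_aux values ran from 5.07 to 8.54, beside a lowest value of 5.0 in the degron lists. The start windows of the long non-coding genes CTDSP2-AS1 (9.11 and 6.13) and LINC02185 (6.50 and 5.97) held the GATA matches. Read on the printed strand, these are CTATCA and AGATAG.

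Motifs were searched on both strands as plain letters, and matches to different motifs may overlap. GATA was AGATAA or alternatively AGATAG, and likewise TGATAA or alternatively TGATAG. AP-1 was TGANTCA, TEAD was GGAATG, TCF was CTTTGAT and RUNX was TGTGGTT. Forkhead was TGTTTAC or alternatively TGTTTGC, and CDX was TTTATGG or alternatively TTTATTG. KLF was GGGCGGG or alternatively GGGTGTG, and ETS was CCGGAAG or alternatively CAGGAAG. SOX was ACAATGG or alternatively ACAAAGG. The dioxin response element was TNGCGTG, and the hypoxia response element was ACGTG. GATA letters stood in 2 of the 17 windows (11.8%), against 11 of the 44 windows in auxin gains outside the shared set, 24.9% of all 34961 windows and 14.5% of the 16464 in regions that all AID_aux and AID_ctrl libraries called. AP-1 letters stood in 4 of 17 (23.5%), against 7.68% of all windows and 5.81% of those in retained regions. Among those 44 windows it was 9 (20.5%). KLF letters stood in 9 of 17 (52.9%, against 38.1% of all windows), ETS in 4 (23.5%, against 21.8%), TEAD in 2 (11.8%, against 14.0%), forkhead in 2 (11.8%, against 7.16%) and RUNX in 2 (11.8%, against 4.28%). CDX letters stood in 2 (11.8%, against 6.35%) and SOX in 1 (5.88%, against 8.25%). TCF letters and those of the dioxin and hypoxia elements stood in 0 of 17, against 2.63%, 5.51% and 21.4% of all windows. The 17 windows were poor in CpG: the median ratio of observed to expected CpG was 0.256, against 0.580 in all windows and 0.830 in retained regions. Their median GC content was 52.3%, against 58.7% and 65.3%. In the auxin gains outside the shared set the ratio was 0.305. With 17 windows these shares are a description of those starts and were not tested.

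Nearly all the shared regions were weak peaks. The −log10 p of the strongest summit had a median of 7.60 in AID_aux replicate 1 (range 5.01 to 28.9) and 6.75 in replicate 2 (5.0 to 19.2), where the lowest value in any degron list was 5.0. Regions retained with auxin, that is called by both AID_aux and both AID_ctrl libraries, had medians of 34.0 and 23.8. The fold enrichment over background had medians of 4.37 in both AID_aux replicates, against 8.70 and 8.11 in retained regions. Only 2 of the 1102 regions lay in the stronger 50% of both AID_aux lists and 73 in the stronger 70%, while 608 lay in the weakest 10% of at least 1 list. Peaks with tied values all took the weakest percentile of their tie, so these counts depend on how ties are ranked. In 153 the value was under 6 in both libraries, and in 40 it was 10 or more in both. Auxin gains that no WT or KO library called were weaker still, at medians of 6.74 and 6.01.

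**Figure D1:**
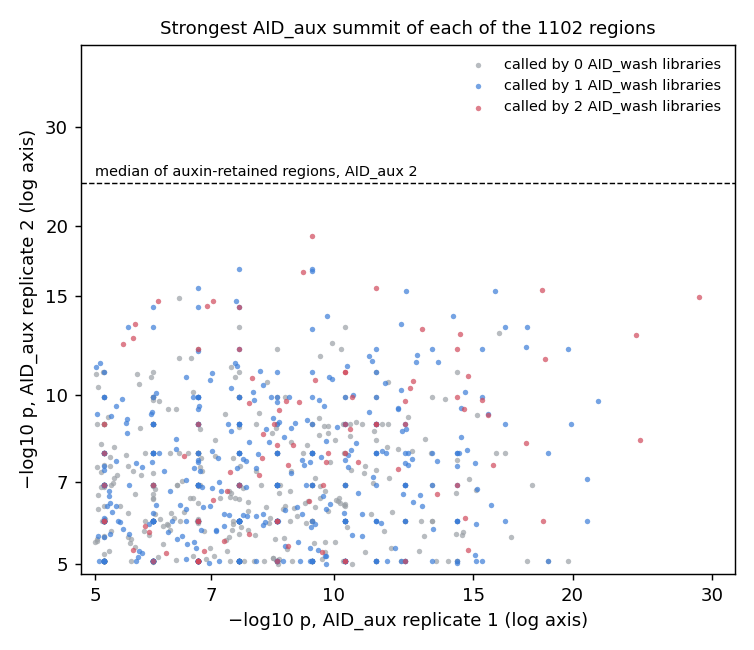
The −log10 p of the strongest summit in AID_aux replicate 1 (horizontal, log axis) and replicate 2 (vertical, log axis) for each of the 1102 regions, coloured by how many AID_wash libraries called it, with many points coinciding. Most points lie near the lower limit of 5.0, and all lie below the dashed line at 23.8, the replicate 2 median of regions retained with auxin.

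The regions were narrow. Their median width was 391.5 bp (150 to 1436), against 686 bp for all regions and 1067 bp for retained regions. Width and strength go together in peak lists, and 973 of the 1102 had only 1 summit in each AID_aux library. The regions covered 472 kb in all. The smaller overlap with a KO window had a median of 335.5 bp, and the smallest was 14 bp. In 3 regions it was under 50 bp. At the lower edge of the rule, the regions of lowest rank were near NHLRC2 (chr10:113960733-113961045, 9.77 and 5.0), near TTC7B (chr14:90503401-90503972, 8.51 and 5.0) and near LOC124905366 on chromosome 6 (10.5 and 5.0). Just outside, 21 auxin gains with no WT call lay within 100 bp of a window in each KO library but overlapped it in at most 1 of them. In all, 362 auxin gains were called by 1 KO and no WT library, and 666 by both KO libraries and 1 WT library. Of these 666, WT replicate 1 called 633 and WT replicate 2, the shortest list, called 33.

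Absent calls were mostly clear of neighbouring peaks. The nearest AID_ctrl peak was at a median of 6145.5 bp and the nearest WT window at 6552.5 bp. An AID_ctrl peak lay within 500 bp of 100 regions and a WT window within 500 bp of 67, and 980 regions had neither.

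The auxin gains as a whole fell into several patterns of WT and KO calls. Both KO libraries and neither WT library called 1102 auxin gains, the reverse held for 9 (0.303%), all 4 called 225, and none called 485. Among the 2729 regions lost with auxin, KO gained 406 (14.9%) and lost 215 (7.88%), and among the 68803 regions retained with auxin KO gained 7.18%. Of all regions KO gained 14.8%. The share that KO lost of all regions was not computed, so 0.303% and 7.88% stand without a base, and KO lists were longer than WT lists. All these shares are a description, since both contrasts chose the regions. The gained shares of auxin gains and of retained regions were also set out at matched strength. The rank of a region was the worse of its percentiles in the AID_aux lists, with low percentiles for strong peaks. At ranks up to 60, 20 of 56 auxin gains were gained in KO (35.7%, Wilson 95% interval 24.5 to 48.8), against 2.60% of 52358 retained regions. At ranks of 70 to 80 it was 39.9% (35.6 to 44.4) against 21.3% (20.1 to 22.4). In the weakest bin, 90 to 100, it was 36.9% (34.6 to 39.2) against 27.6% (26.1 to 29.1). The share in auxin gains was thus nearly flat over ranks, while that in retained regions rose toward weak peaks and the gap narrowed. Calls by both KO libraries, whatever WT called, went the other way in every bin. They covered 82.1% of auxin gains against 98.5% of retained regions at ranks up to 60, and 63.6% against 79.8% in the weakest bin. The higher gained share of auxin gains thus came with fewer WT calls, not with more KO calls. Retained regions were wider at each rank, with medians of 641 bp against 375 bp in the weakest bin, which makes an overlap with a WT window easier; its part in the gap was not tested. Wilson intervals here cover counting error only, and regions of the same libraries are not replicates.

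**Figure D2:**
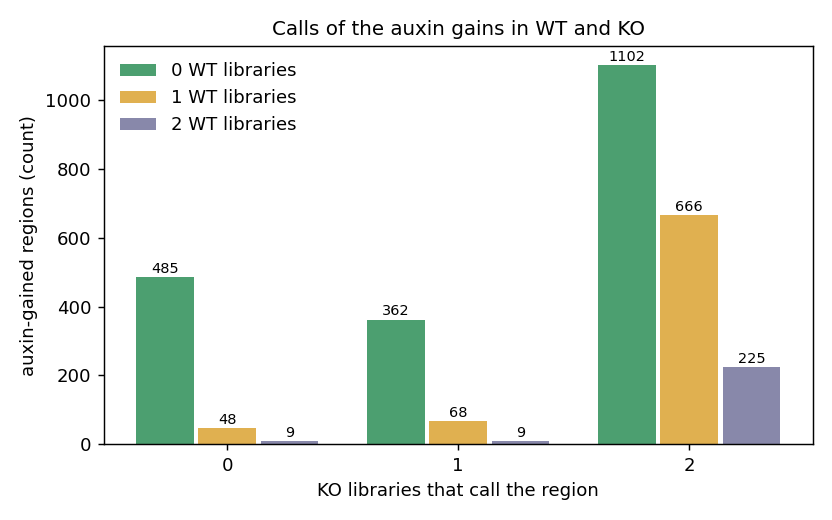
Auxin-gained regions (count, vertical) by the number of KO libraries that called them (horizontal) and of WT libraries (colour). The tallest bar, 1102 regions with both KO and no WT library, is the set described here; the other bars with both KO libraries hold 666 and 225.

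**Figure D3:**
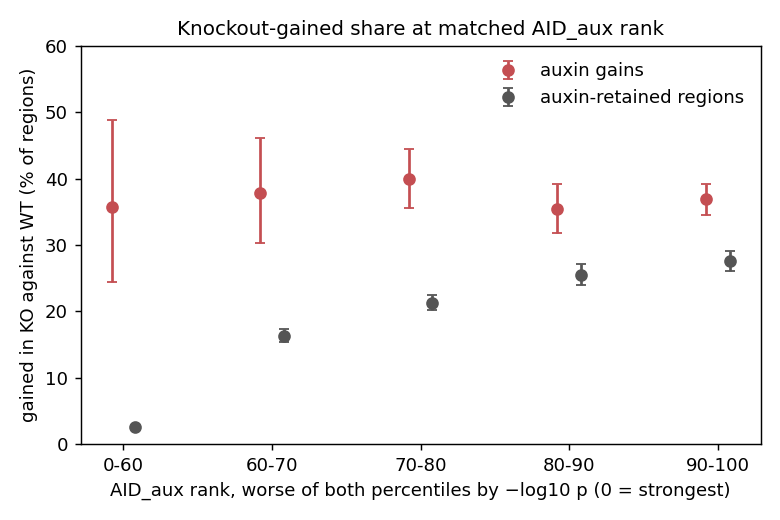
Percentage of regions gained in KO against WT (vertical) by AID_aux rank (horizontal, strongest at the left) for auxin gains and for auxin-retained regions, with Wilson 95% intervals. Auxin gains stay between 35.4% and 39.9%, and retained regions go from 2.60% to 27.6%. In every bin, retained regions were called by both KO libraries more often than auxin gains.

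The rule asks only that a KO window overlap the region by 1 bp. Even so, overlap of a 500 bp window with a narrow region limits how far its centre can lie from the AID_aux summit. The distances given here are thus a description of regions that the rule chose. The distance from the stronger AID_aux summit to the centre of the nearest KO window had a median of 53 bp in KO replicate 1 and 50 bp in replicate 2. It was at most 100 bp in 836 regions (75.9%, Wilson 95% interval 73.2 to 78.3) and 807 regions (73.2%, 70.5 to 75.8). The AID_aux summits of replicates 1 and 2 lay 21.5 bp apart at the median. Knockout gains that were retained with auxin had 67.9% and 69.0% of windows within 100 bp, and auxin gains that all WT and KO libraries called had 62.2% and 61.8%. Narrow regions leave less room for distance, and those sets had median widths of 661 and 462 bp. The part of width was not tested.

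**Figure D4:**
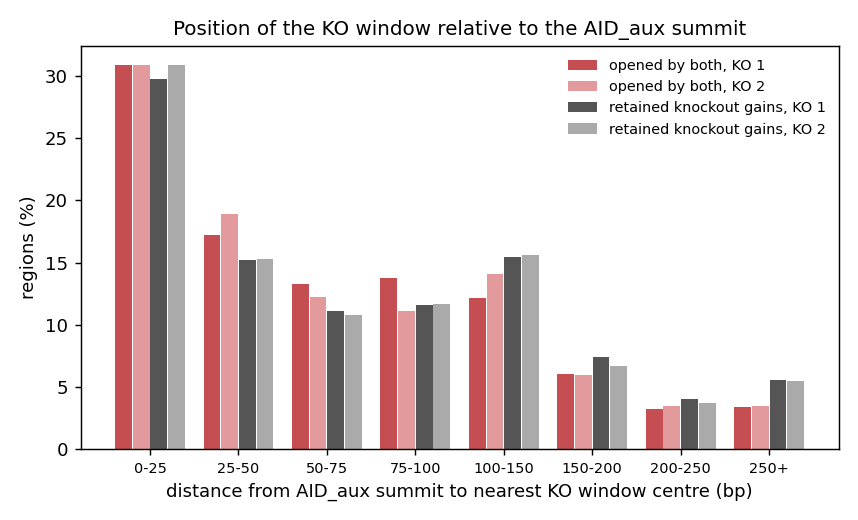
Share of regions (percent, vertical) by distance from the AID_aux summit to the nearest KO window centre (bp, horizontal), for the 1102 regions opened by both and for knockout gains retained with auxin, in each KO library. In the first set 30.9% of regions lie under 25 bp in each library, and 3.36% and 3.45% lie at 250 bp or more. In the second set 29.8% and 30.8% lie under 25 bp, and 5.56% and 5.48% at 250 bp or more.

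The rule asked for no call or absence of a call in the AID_wash libraries. Their peaks were, however, merged into the regions and so helped to set region edges and width. The median width was 457.5 bp in shared regions called by both wash libraries and 373 bp in those called by neither. The part that this merging plays in the wash calls was not tested. After the wash, 557 of the 1102 regions (50.5%, Wilson 95% interval 47.6 to 53.5) were called by neither library, 447 (40.6%) by 1 and 98 (8.89%, 7.35 to 10.7) by both. Among all regions of the degron line, 22.2% were called by neither and 57.3% by both. AID_wash replicate 1, the shortest degron list, called 179 shared regions (16.2%, against 60.8% of all regions). Replicate 2 called 464 (42.1%, against 74.3%). On the shared regions the wash libraries thus differed by more than 2-fold. Auxin gains with no WT or KO call were called by neither in 63.3% (58.9 to 67.5) and by both in 5.15% (3.52 to 7.50). Auxin gains that all WT and KO libraries called were at 39.6% (33.4 to 46.1) and 16.4% (12.2 to 21.8). The shared regions lay between these sets, as did their AID_aux strength, and close to all auxin gains (50.8% and 9.78%). Within AID_wash replicate 1, 16.2% of the shared regions were called against 10.1% of auxin gains with no WT or KO call, and within replicate 2 42.1% against 31.8%, so the order was the same in both. These differences were not tested over samples.

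Stronger regions were called more often after the wash. Of the 20 regions at ranks up to 60, 1 had no wash call and 7 were called in both replicates (35.0%, Wilson 95% interval 18.1 to 56.7). In the weakest bin 350 of 608 were called by neither (57.6%) and 34 by both (5.59%). In these bins 97.9% and 50.8% of retained regions had both wash calls. Regions called by both wash libraries had AID_aux medians of 8.76 and 8.01, against 7.08 and 6.30 for those called by neither. Where the wash libraries called a region, the peak remained weak, with a median −log10 p of 6.62 in replicate 1 and 7.23 in replicate 2.

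**Figure D5:**
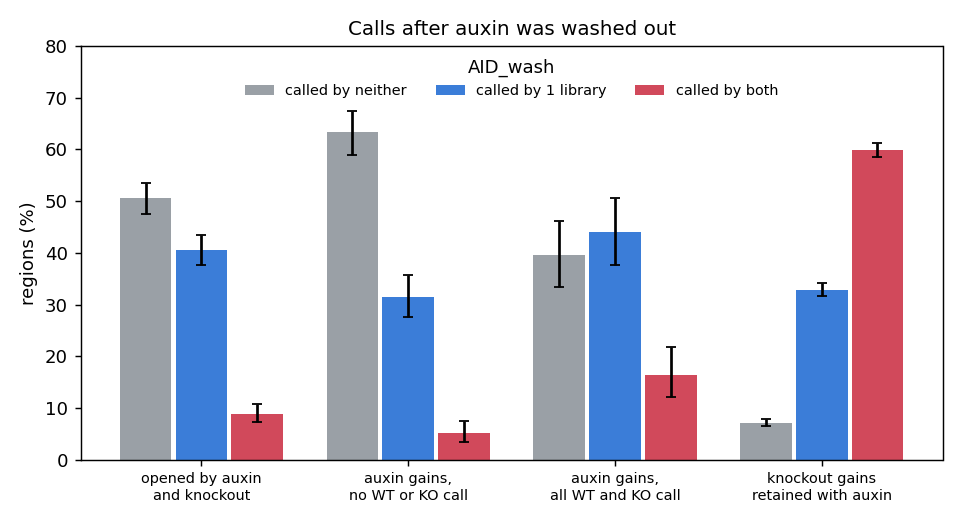
Percentage of regions (vertical) called by neither, 1 or both AID_wash libraries, for the 1102 regions and 3 other sets (horizontal), with Wilson 95% intervals. The regions opened by auxin and knockout have 50.5% with neither call and 8.89% with both; knockout gains retained with auxin have 7.20% and 59.9%.

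The number of shared regions and their wash calls rested on single libraries. With fewer libraries that have to concur, the number was 2298 when AID_ctrl replicate 1 was left out, 2022 for AID_ctrl replicate 2, 2065 for AID_aux replicate 1, 3228 for AID_aux replicate 2 and 1735 for WT replicate 1. The share called by both wash libraries was then 17.9%, 15.5%, 5.67%, 5.02% and 11.5% in the same order. The share not called was 83.8% without AID_wash replicate 2. With the degron lists trimmed to equal length by −log10 p, 839 regions met the rule but only 331 of the 1102 were among them, so which regions are named depends on weak peaks at the end of the lists.

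The RefSeq gene table used here (GRCh38.p14) gives neither exons nor introns. By it, 51.8% of the 1102 regions lay inside a protein-coding gene, near the 52.2% of all regions. The strongest shared regions lay mostly inside genes. The first was inside CD300A, an inhibitory receptor of leukocytes (chr17:74477171-74477905). Its −log10 p was 18.3 in AID_aux replicate 1 and 15.3 in replicate 2, it was 8.54 and 13.7 in AID_wash, and KO windows covered 500 and 469 bp. The eighth lay on the same chromosome inside KIF19, a ciliary kinesin (chr17:74345230-74346162), at 24.1 and 12.8, with 5.10 and 7.62 after the wash. The second was 69795 bp from WDR5, a subunit of histone methyltransferase complexes (chr9:134229216-134230309). It had the highest replicate 1 value of all 1102, at 28.9, beside 14.9 in replicate 2, and was called at 11.2 and 7.83 after the wash. CD300A and WDR5 mark the only regions in the stronger 50% of both AID_aux lists.

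Of the other regions among the first 12, ADHFE1 and the region on chromosome 3 had both wash calls and BORCS5 had none. Inside PLIN5, a lipid droplet protein gene, the region (chr19:4523190-4523715) stood at 15.9 and 15.3 in AID_aux and 8.81 in AID_wash replicate 1, with no call in replicate 2. PTGER2, a receptor for prostaglandin E, held a region 479 bp from a gene end (chr14:52327420-52328119, 17.5 and 13.2, and 5.61 in AID_wash replicate 2). A peak of AID_ctrl replicate 1 lay 254 bp from the PTGER2 region. Inside BORCS5, a gene of lysosome positioning, a region of 230 bp (chr12:12405911-12406140, 16.1 and 12.9) was called by neither wash library. The region inside ADHFE1, a mitochondrial transhydrogenase gene (chr8:66462530-66463146, 14.4 and 12.8), was called by both (7.97 and 8.98), and its KO windows were centred 11 and 3 bp from the AID_aux summit. Peaks of AID_ctrl replicates 1 and 2 lay only 194 and 170 bp from the ADHFE1 region, and a window of WT replicate 1 lay 344 bp away. The remaining regions were inside WDR72, IL2RB, ANXA4 and CWC27 and, with no protein-coding gene within 100000 bp, at chr3:40691105-40691940. Peaks of AID_ctrl replicates 1 and 2 lay 463 and 457 bp from the CWC27 region. Further down, a region 4168 bp from KLHL6, a ubiquitin ligase adaptor of B cells (chr3:183482916-183483850, 18.5 and 11.6), was called by both wash libraries (6.05 and 11.3). IL2RB encodes a subunit of the interleukin-2 receptor and ANXA4 a calcium-dependent membrane-binding protein.

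Few regions lay near gene ends. Of the 1102, 50 (4.54%, Wilson 95% interval 3.46 to 5.93) had a protein-coding gene's end within 1000 bp, against 13.2% of all regions and 19% of retained regions. Auxin gains with no WT or KO call had 5.15% (3.52 to 7.50) and knockout gains retained with auxin 6.31% (5.67 to 7.02). These intervals overlap that of the shared regions, the latter only slightly. Overlap does not show that the shares are equal, and the differences were not tested. Inside a protein-coding gene lay 571 (51.8%), near the 52.2% of all regions, and 144 (13.1%) had no such gene within 100000 bp. A region that all 10 libraries called lay within 5 kb of 252 (22.9%), against 30.9% (26.98 to 35.2) for auxin gains with no WT or KO call and 26.3% for all regions.

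Besides PLIN5, PTGER2 and PLA2G2A, the best-ranked regions near gene ends were at ATF6B, a membrane-bound transcription factor of the unfolded protein response (13.5 and 11.4 in AID_aux), and GCC1, a Golgi protein (12.2 and 10.2). Both were called by AID_wash replicate 2 alone, at 7.15 and 10.6. The region at RPLP0, a ribosomal stalk protein gene, was called at 9.73 and 8.80 and by neither wash library, and a region open in all 10 libraries lay 138 bp away. RCVRN, TMPRSS13, DHDH, H1-3, FCGBP and CSF2RB followed, at ranks of 72.9 to 77.6. FCGBP encodes a mucus protein of goblet cells, and its region (chr19:39863219-39863511) overlapped a gene end at 10.3 and 7.87, with KO windows over all 293 bp and no wash call. CSF2RB, the common beta subunit of cytokine receptors, had 15.1 and 7.56.

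The regions were spread over many genes: the 958 with a protein-coding gene within 100000 bp were assigned to 891 genes, of which 829 had 1 region, 57 had 2 and 5 had 3. The median spacing between neighbours was 1326 kb, and 8 neighbouring pairs started within 10 kb of each other. Genes with 3 included EPAS1, UNC5C, KCNB2 and ACSF3. EPAS1, a hypoxia-inducible transcription factor, had 24 regions, of which 4 were auxin gains, 0 auxin losses and 9 knockout gains. The shared region 53267 bp outside its body (chr2:46243949-46244330) had 12.9 and 13.1 in AID_aux and was called after the wash at 6.62 and 7.49. Those inside the gene were weaker, at 9.75 and 6.75, and at 7.78 and 6.09. Neither wash library called the former, and replicate 2 alone called the latter. UNC5C, a netrin receptor, had 20 regions with 3 auxin gains and 1 loss, and KCNB2, a potassium channel, 16 with 3 and 1. The 3 at ACSF3, a mitochondrial acyl-CoA synthetase, all lay outside the gene, at 25879 to 56182 bp.

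Across 21 lists with 413 genes, all matched in the gene table, 39 of 3844 assigned regions were shared gains (1.01%, beside 0.915% of all regions). In no list did the number exceed 5. Hypoxia genes had 5 of 185 regions (2.70%): the 3 at EPAS1, 1 near BNIP3, a mitochondrial autophagy receptor (6.21 and 6.75), and 1 near NDRG1 (8.30 and 5.93). Nuclear receptors had 5 of 370 (1.35%), with 2 inside RARB, a retinoic acid receptor (11.3 and 8.31, and 14.3 and 5.97), 2 at RORA and 1 at RXRA. Among 9 GATA factor genes, 2 of 105 regions were shared gains. That assigned to GATA6 (chr18:22243421-22243812) lay 41089 bp from the gene, at 10.1 and 6.51, with KO windows over 322 and 392 bp and no wash call. A region open in all 10 libraries was 212 bp from it. That at GATA3, a factor of T cells and several epithelia, lay 349 bp from a gene end. At 5.92 and 9.92, it was weaker than that of GATA6 in AID_aux replicate 1 and stronger in replicate 2.

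Intestinal transcription factors had 2 of 295 regions (0.678%), among them that near EHF, an epithelial ETS factor (chr11:34606277-34606898, 11.7 and 10.5, no wash call). A window of WT replicate 2 lay 6 bp from the EHF region, so that its absent WT call rests on those few bases. WNT and stem cell genes had 3 of 319 (0.940%). The region inside MYC, the growth-promoting transcription factor gene (10.4 and 11.2), was called by AID_wash replicate 2. A region open in all 10 libraries lay 200 bp from it. That near TCF7L2, the main WNT effector of the colon, had 12.8 and 6.64, and that inside EPHB2, an ephrin receptor of crypts, 8.91 and 6.30. BMP and TGF-beta genes had 3 of 388 (0.773%), with the strongest inside TGFBR3, a co-receptor (chr1:91736293-91736513, 14.8 and 10.8). Both wash libraries called it, at 8.56 and 7.86, and a region open in all 10 libraries lay 186 bp away. The others were at BMP4, a secreted ligand (5.21 and 6.76), and SMAD6, an inhibitory SMAD (9.40 and 5.07). A region open in all 10 libraries lay 172 bp from that at BMP4.

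Epithelial junction genes had 3 of 320 regions (0.938%), among them those at TJP3 and PARD3, which code for cell-contact scaffold proteins. TJP3 was called in all AID_aux and AID_wash libraries (8.11, 7.74, 7.67 and 6.91). Peaks of AID_ctrl replicates 1 and 2 lay 161 and 364 bp from the TJP3 region, and a window of WT replicate 1 lay 234 bp away. YAP and fetal genes had 2 of 223 (0.897%), at AJUBA, a Hippo pathway scaffold (7.82 and 8.23), and WWTR1, a Hippo effector (6.74 and 5.97). A region open in all 10 libraries lay 177 bp from that at AJUBA. AP-1 genes had 2 of 96 (2.08%), near FOS (7.60 and 5.97, with 11.8 in AID_wash replicate 2) and JUN. Enteroendocrine genes had 2 of 77 (2.60%), near NEUROD1, a differentiation factor (9.84 and 6.22), and CCK, a gut hormone (6.74 and 5.97, and called by both wash libraries). Aryl hydrocarbon receptor genes had 2 of 133 (1.504%), near CYP1B1 (6.17 and 5.89) and inside SLC7A5, an amino acid transporter (6.79 and 8.70). Neither wash library called the CYP1B1 and SLC7A5 regions. Peaks of AID_ctrl replicates 1 and 2 lay 307 and 419 bp from the CYP1B1 region, and a window of WT replicate 1 lay 299 bp away. At SLC7A5 a peak of AID_ctrl replicate 1 lay 396 bp and a window of WT replicate 1 270 bp from the region.

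Looping and chromatin genes had 3 of 265 (1.13%), at KMT2C, a histone methyltransferase (6.74 and 7.87), HDAC9 and STAG2. EGFR and RAS genes had 1 of 268 (0.373%), near DUSP4, a MAP kinase phosphatase (6.09 and 5.85). NF-kB and inflammatory genes had 1 of 134 (0.746%), near CCL20, a chemokine of mucosal epithelium (7.60 and 9.92). Goblet genes had 1 of 104 (0.962%), the FCGBP region, and housekeeping genes 1 of 94 (1.06%), at RPLP0. Blood and immune markers had 1 of 34 (2.94%), inside SPI1, a master factor of myeloid cells (9.11 and 7.66, with 6.45 in AID_wash replicate 2). Enterocyte genes had 0 of 101, mesenchymal genes 0 of 193, colorectal epithelium markers 0 of 107 and fibroblast and endothelial markers 0 of 119. These counts are too small to set a list apart, and none was tested.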

How the data were processed

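Processed peak lists of 10 ATAC-seq libraries (50000 viable cells, 150-nt paired reads, per the labels) were used. Bowtie2 2.4.2, Trim Galore 0.6.10, Picard, MACS2 2.1.1 and hg38 appear in the submitters' processing notes. For parameters, the transposase offset and blacklists, a statement is not given in the sources used here. Per summit, the 6 deposited degron lists carry a score, a fold enrichment ratio, and p-value and q-value as −log10, each the authors' own within its list. Only coordinates of 500 bp windows stand in the 4 deposited lists of WT and KO.

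Intervals of the degron lists on chromosomes 1 to 22 and X were merged where they overlapped or touched, and a library called a region by 1 bp of overlap (Python 3.11.15, numpy 2.4.6, pandas 2.3.3). Interval code was tested on simulated data. Regions went to the nearest protein-coding gene body from the midpoint, within 100000 bp. Wilson intervals are at 95% (scipy 1.17.1). No test over samples was run. Named regions were the 12 of best rank, up to 12 near gene ends, up to 8 called by both AID_wash libraries, those at listed genes and those of lowest rank. Genes with 2 regions were only counted, and a few named items are not reported here. Members, gene lists and motifs were chosen with earlier results of these data known. Alternatives were 50% coverage, summit calls, the top 50% of peaks, a 500 bp margin, merging all 10 lists, equal list lengths, a 3000 bp limit and leaving out each library. Region sequence away from gene starts was not used here, so the planned motif search ran on gene starts alone.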

Additional observations from a re-analysis of the deposited data

How the results depend on the processing

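The number of regions was between 839 and 1102 with 50% coverage (776 of the 1102 kept), summit calls (1102), a 500 bp margin (980), all 10 lists merged (1080 kept) and equal degron lists (331 kept), but it was 2 in the top 50% of both AID_aux lists. Those 2 were called by both wash libraries (100% both, 0% neither), had a median width of 914.5 bp, and 0% lay near a gene end. With equal lists the share called by neither wash library was 43.6% and by both 18.0%, and the median width 432 bp. With 50% coverage 56.1% were called by neither and the width was 404 bp, and with all 10 lists merged the width was 574 bp. The share near gene ends was 9.98% at 3000 bp. With each AID_ctrl, AID_aux, WT or KO library left out in turn the number ran from 1135 to 3228, and leaving out a wash library left it at 1102. The share with no wash call ran from 36.7% to 83.8% and that called by every wash library used from 5.02% to 42.1%, where the upper end of each range rests on 1 wash library alone. The share near gene ends ran from 4.06% to 5.04% and the width from 288 to 445 bp. No paired analysis was possible because the result comes from no test. Depth is unknown, so a missing call does not show closed chromatin, and 608 of the regions lie in the weakest 10% of an AID_aux list.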

Other observations

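By chromosome, the shared regions made up 5.54 per 1000 regions on chromosome 18, which carries GATA6, and 13.7 per 1000 on chromosome 22, with the other chromosomes between these. On chromosome 22, 35 of 62 auxin gains (56.5%) were shared with the knockout, on chromosome 16 58 of 118 (49.2%) and on chromosome 18 15 of 60. The X chromosome had the highest share of knockout gains, 22.0% of its regions. None of these differences was tested.

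Close neighbours were few. The nearest neighbours lay near RBM19 on chromosome 12, starting 552 bp apart. At CSF2RB 2 of 4, at PROK2 2 of 3 and at DHDH 2 of 3 assigned regions were shared gains. These genes were picked after their values were seen. None of 1558 microRNA hairpins lay in a shared region.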
